A study of Mus musculus with 63 samples.

Results

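The immediate early response (Ier) family was measured as 4 genes, Ier2 (ENSMUSG00000053560), Ier3 (ENSMUSG00000003541), Ier5 (ENSMUSG00000056708) and Ier5l (ENSMUSG00000089762), of the 56980 genes counted by RNA-seq in sorted cells of the mouse cortex. The members were found by gene symbol, and all 4 had counts in each of the 4 sorted populations. The family was chosen by a measured value, the lower level of Ier5l in CD11b-positive microglia after a burn, so burn against sham in those libraries is given for all 4 members as a description, with no test.

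Female C57BL/6J mice, 12 weeks old on arrival, had viral injections into the motor cortex, anaesthesia and a shaved flank, and were then given either a thermal burn of 7 to 8% of the body surface or a sham procedure without heat. Cells were sorted 5 weeks later. CaMKII positive cells, labelled as excitatory neurons, carried a CaMKII-driven eGFP, and double-positive cells, labelled as inhibitory neurons, carried it together with an mDlx-driven mRuby2. Both came from the motor cortex, where each vector marks only the cells it reached. ACSA2-positive astrocytes and CD11b-positive microglia were stained with antibodies in cortex caudal to it, so population and region cannot be told apart between the virus-labelled and antibody-labelled cells. The kept libraries came from 17 mice and numbered 4 burn and 6 sham for CaMKII positive cells, 9 burn and 7 sham for double-positive cells, 9 burn and 8 sham for astrocytes, and 8 burn and 7 sham for microglia.

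Immediate early response genes are switched on within minutes to hours of growth factors, stress or cell damage, without the need for new protein synthesis. Ier2, Ier5 and Ier5l share a conserved N-terminal domain and can bind the phosphatase PP2A, and Ier5 brings PP2A to heat shock factor HSF1. Ier3, also called IEX-1, is related by its regulation and not by its sequence: it is a target of NF-kB that alters cell survival. In brain tissue, dissociation itself can induce such genes in microglia and endothelial cells.

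The 58 kept libraries held 13346143 to 134703744 counts with a median of 24339896. Another 5 libraries, the 4 of burn mouse 3 and the double-positive library of sham mouse 8, stayed out of the comparisons. The labels of the virus-labelled populations were not borne out by marker genes. Over the 5 general neuron markers the median level in CPM (reads of a gene scaled to a common library total) was 13.1 in CaMKII positive and 1.74 in double-positive libraries, against 1993 CPM for the 6 astrocyte markers and 490 CPM for the 5 endothelial markers in the former and 2861 CPM for the 6 microglia markers in the latter. These libraries are therefore named by their sort gate. ACSA2 libraries had 3990 CPM of astrocyte markers and 6.98 CPM of microglia markers, and CD11b libraries had 3834 CPM of microglia markers and 6.67 CPM of astrocyte markers. Mural and endothelial markers reached 141 and 74.1 CPM in ACSA2 libraries, and border macrophage markers 29.4 CPM in CD11b libraries.

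The proximal promoters of 3 of the 4 members were found in a RefSeq table (build GRCm38.p6), and they are shown because Ier5l differs from Ier3 and Ier5 in its order across the populations below. Each is printed 5′ to 3′ on the strand of the gene and ends just before the most upstream annotated start, and the capitals mark CCAAT on either strand, so that ATTGG is its reverse complement. They lie at chr17:35821463-35821683 on the plus strand for Ier3, at chr1:155099637-155099886 on the minus strand for Ier5 and at chr2:30474220-30474449 on the minus strand for Ier5l.
Ier3: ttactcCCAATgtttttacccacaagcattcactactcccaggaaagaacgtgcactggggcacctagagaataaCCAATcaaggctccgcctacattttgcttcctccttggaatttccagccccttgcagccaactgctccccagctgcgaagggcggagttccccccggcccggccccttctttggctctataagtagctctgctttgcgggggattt
Ier5: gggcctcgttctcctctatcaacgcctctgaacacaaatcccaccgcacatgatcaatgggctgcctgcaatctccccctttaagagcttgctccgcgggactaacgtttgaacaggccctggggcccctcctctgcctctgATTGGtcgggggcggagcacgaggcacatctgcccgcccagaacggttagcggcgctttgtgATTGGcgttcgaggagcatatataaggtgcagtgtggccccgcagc
Ier5l: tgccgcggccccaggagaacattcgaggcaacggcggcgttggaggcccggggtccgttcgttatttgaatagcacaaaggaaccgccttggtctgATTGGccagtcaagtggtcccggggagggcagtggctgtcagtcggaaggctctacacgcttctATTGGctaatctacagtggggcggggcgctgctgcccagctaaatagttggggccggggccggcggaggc

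CCAAT, the sequence bound by NF-Y, occurred 2 times in each of the 3 promoters, and 10.1% of the 32851 promoters in the table held it at least 2 times in the 250 bases before the start. The GC box core GGGCGG was present 1 time in Ier3, 2 times in Ier5 and 1 time in Ier5l, and in 32.7% of all promoters. Ier3 held 1 copy of GGAATTTCC, the palindromic NF-kB motif, which 0.286% of all promoters held. Ier5l held 1 copy of GAANNTTC, a core of the heat shock element, which 6.69% of all promoters held. The core of the cAMP response element, TGACG, was found in none of the 3 windows and in 17.8% of all promoters. The same held for the AP-1 motif TGACTCA (4.46% of all promoters), for a TATA box spelled TATAAA (12.4%) and for the CArG box of serum response factor (1.47%). Both strands were searched, overlapping matches were kept, and the motifs were picked after the sequences were seen.

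Ier2, Ier3 and Ier5 had 1 order of levels across the sorted populations and Ier5l had another. Ier2 averaged 496 ± 71.5 CPM (SD, n = 16) in double-positive libraries, 469 ± 81.8 CPM (n = 15) in CD11b libraries, 147 ± 48.4 CPM (n = 10) in CaMKII positive libraries and 32.7 ± 14.6 CPM (n = 17) in ACSA2 libraries. Ier3 followed the same order at 226 ± 50.5, 220 ± 65.2, 80.9 ± 28.5 and 12.3 ± 6.26 CPM. Ier5 did so too, at 959 ± 95.5, 813 ± 107, 125 ± 26.8 and 32.1 ± 7.99 CPM. Ier5l was highest in CaMKII positive libraries at 19.4 ± 8.73 CPM, followed by ACSA2 libraries at 6.12 ± 2.37 CPM, double-positive libraries at 2.66 ± 1.44 CPM and CD11b libraries at 2.50 ± 1.66 CPM. The order of the last pair rests on the burn CD11b libraries that picked the family. In sham libraries alone the means were 3.07 CPM in double-positive and 3.78 CPM in CD11b libraries. The 2 populations rich in microglia markers thus had the highest Ier2, Ier3 and Ier5 and the lowest Ier5l.

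**Figure D1:**
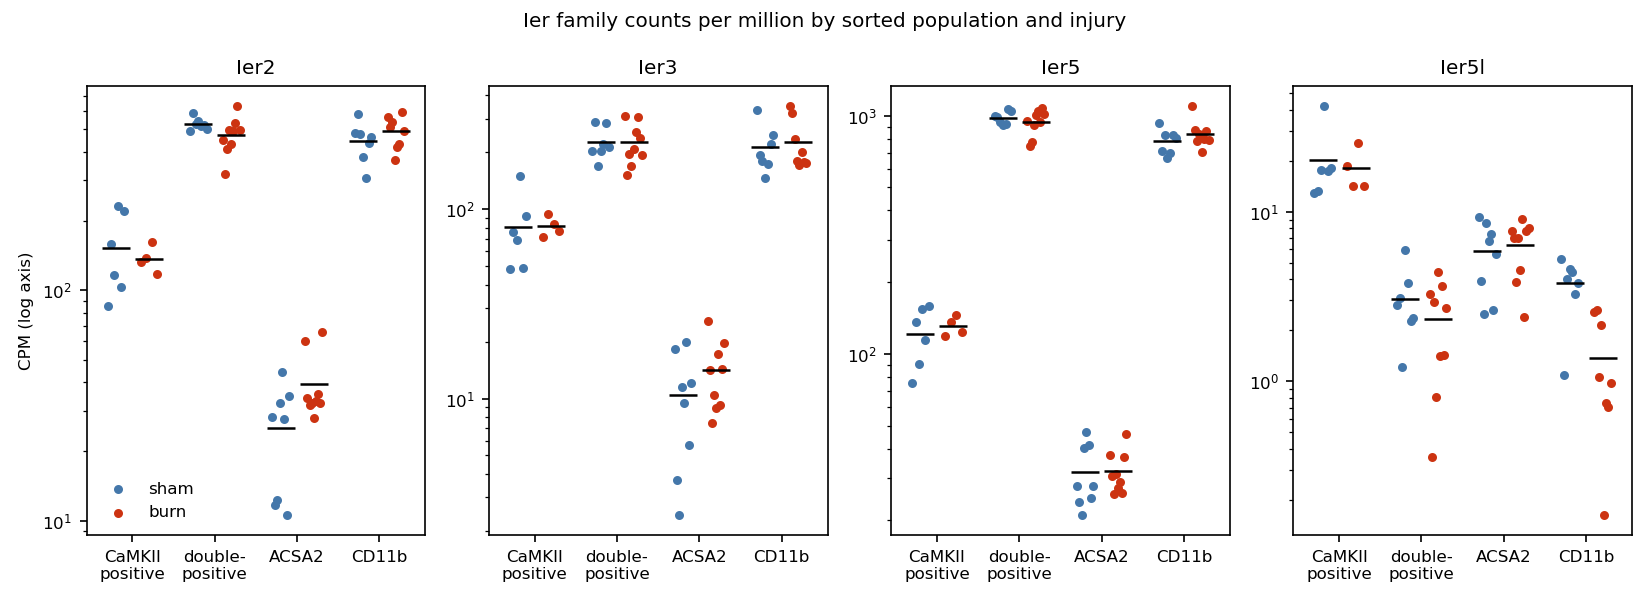
CPM (log axis) of each member in every kept library, by sorted population, with sham libraries in blue, burn libraries in red and a line at each group mean. Ier2, Ier3 and Ier5 sit highest in double-positive and CD11b libraries, while Ier5l is highest in CaMKII positive libraries, between 13.0 and 41.9 CPM.

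The members could be compared with each other only per length, as CPM per kilobase of annotated exon. On that scale Ier2 led in every population, with a mean of 326 in double-positive, 308 in CD11b, 96.5 in CaMKII positive and 21.5 CPM per kilobase in ACSA2 libraries. Ier5 came next in double-positive and CD11b libraries, at 293 and 248 CPM per kilobase. Ier3 took that place in CaMKII positive libraries at 71.6 CPM per kilobase, and in ACSA2 libraries Ier3 and Ier5 lay close together at 10.9 and 9.79 CPM per kilobase. Ier5l was the lowest member everywhere, with 7.23 CPM per kilobase in CaMKII positive and 0.932 in CD11b libraries. It made up a mean of 5.26% of the family's summed level per length in ACSA2 libraries and 3.39% in CaMKII positive libraries, against 0.120% in double-positive and 0.128% in CD11b libraries.

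The differences between populations were tested in a joint fit of all 58 libraries with edgeR's quasi-likelihood test, and a gene was called at an adjusted p (p.adj, Benjamini-Hochberg over all genes) of at most 0.05 and an absolute log2 difference of at least 1. Between ACSA2 and CD11b libraries all 4 members were called, where 51.2% of the 33150 genes tested were. Ier2, Ier3 and Ier5 were 14.2-fold, 17.0-fold and 24.0-fold lower in ACSA2 libraries, with p.adj of 3.24e-28, 4.04e-25 and 2.44e-39. Ier5l was 3.02-fold higher there (log2 difference 1.59, SE 0.28, p.adj = 2.02e-06). The joint fit averages burn and sham, so the burn CD11b values that picked the family enter this Ier5l call. The call is therefore not independent of the selection. The Ier5l means were 5.84 CPM in ACSA2 and 3.78 CPM in CD11b sham libraries, and 6.37 and 1.38 CPM after a burn. The ACSA2 and CD11b ranges of Ier2, Ier3 and Ier5 did not overlap, while those of Ier5l did. The share of all genes without overlap was not counted. The microglia markers summed in ACSA2 libraries came to 0.368% of their level in CD11b libraries, and Ier2, Ier3 and Ier5 came to 6.97%, 5.60% and 3.95%. The part of microglia in the ACSA2 levels was not tested.

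CaMKII positive libraries exceeded ACSA2 libraries in all 4 members, and 16.2% of all genes were called in that comparison. The log2 differences were 1.99 (SE 0.17) for Ier2, 2.56 (SE 0.21) for Ier3, 1.76 (SE 0.11) for Ier5 and 1.37 (SE 0.30) for Ier5l, with p.adj of 1.01e-14, 3.56e-15, 1.97e-19 and 0.000274. No CaMKII positive library fell within the ACSA2 range for any member, and the share of all genes for which this holds was not counted. The endothelial markers summed to 4996 CPM in CaMKII positive and 614 CPM in ACSA2 libraries, 8.14 times as much as a ratio of means, and the microglia markers to 873 and 84.5 CPM. The part of either in these differences was not tested.

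Double-positive and CD11b libraries were the neighbours in these orders between which no member passed the test. None of the 4 members was called between them in edgeR or in DESeq2, against 6.82% of all genes, a share at which few calls among 4 genes could occur, and only Ier5 had an unadjusted p under 0.05. The log2 difference, double-positive minus CD11b, was 0.10 for Ier2 (95% interval -0.20 to 0.41), 0.15 for Ier3 (-0.23 to 0.53), 0.25 for Ier5 (0.05 to 0.46, p.adj = 0.112) and 0.37 for Ier5l (-0.19 to 0.93). The Ier5l value includes the burn CD11b libraries that picked the family. Its means were 3.07 CPM in double-positive and 3.78 CPM in CD11b sham libraries, and 2.34 and 1.38 CPM after a burn. The microglia markers in double-positive libraries reached 82.3% of their summed level in CD11b libraries.

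The comparisons across these groups all called the 4 members, in opposite directions for Ier5l and the rest. Against CD11b libraries, CaMKII positive libraries were 3.57-fold lower in Ier2, 2.89-fold lower in Ier3 and 7.11-fold lower in Ier5, and 7.79-fold higher in Ier5l, with p.adj between 2.88e-26 and 9.03e-08, and 42.2% of genes were called. The burn CD11b values that picked the family enter that Ier5l value. The Ier5l means were 20.3 CPM in CaMKII positive and 3.78 CPM in CD11b sham libraries, and 18.1 and 1.38 CPM after a burn. Against double-positive libraries, CaMKII positive libraries were 3.83-fold, 3.22-fold and 8.47-fold lower and 6.03-fold higher, with p.adj between 2.70e-27 and 1.28e-08, and 42.5% of genes were called. Double-positive libraries were 15.2-fold, 18.9-fold and 28.7-fold higher than ACSA2 libraries in Ier2, Ier3 and Ier5 and 2.34-fold lower in Ier5l (p.adj = 8.82e-05), where 51.1% of genes were called. The endothelial markers in CD11b libraries came to 1.58% of their summed level in CaMKII positive libraries, and Ier5l came to 12.9%. The part of endothelial cells in either level was not tested.

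**Figure D2:**
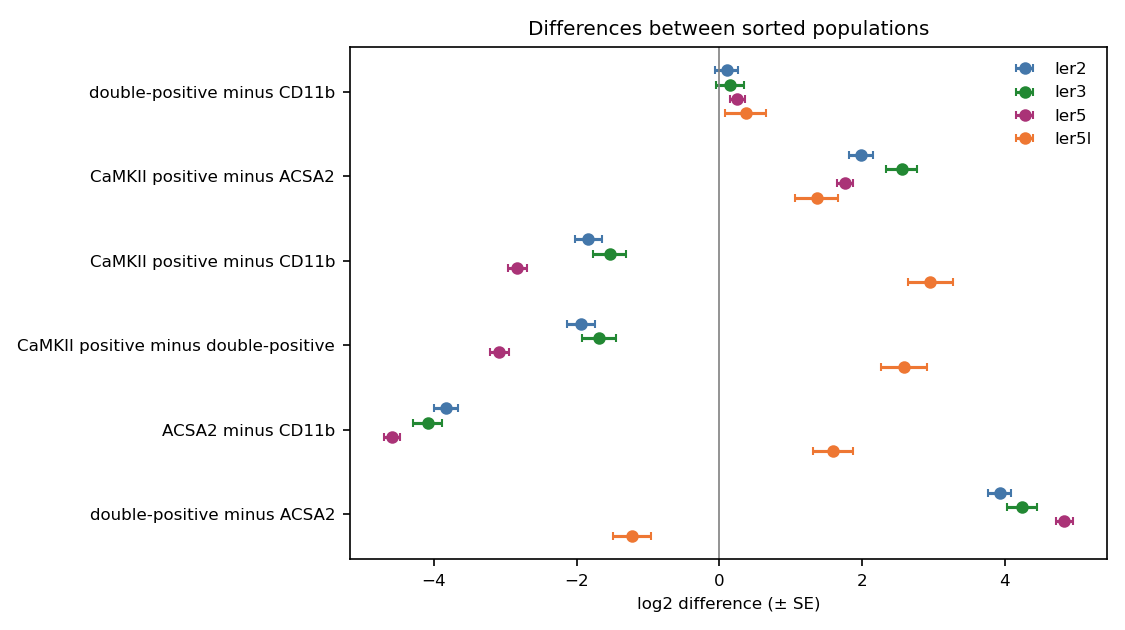
Log2 difference of each member between pairs of sorted populations with its standard error, from the joint fit of 58 libraries. Burn and sham are averaged, so the burn CD11b values of Ier5l that picked the family enter the pairs with CD11b libraries. Ier5l points opposite to Ier2, Ier3 and Ier5 in each of the 4 pairs that set CaMKII positive or ACSA2 libraries against double-positive or CD11b libraries, and all 4 members lie near 0 between double-positive and CD11b libraries.

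The other immediate early genes gave a background for this order. The 47 genes of this list share the same kind of rapid induction and include, among others, transcription factors, phosphatases and RNA-binding proteins. Of them, 37 were lower and 4 higher in ACSA2 than in CD11b libraries, with a median log2 difference of -2.90. Over all 33150 genes 6899 were lower and 10071 higher, with a median of 0.24. The 3 immediate early genes with the smallest p were Mcl1 (-3.34), an inhibitor of apoptosis, and the AP-1 subunits Jun (-4.18) and Jund (-3.30). In CaMKII positive against ACSA2 libraries 34 of the list were higher and 0 lower, with a median of 1.57, while over all genes 4097 were higher and 1288 lower with a median of -0.05. Between double-positive and CD11b libraries 1 of 47 was called, Ccn2, a matrix-associated growth factor, at a log2 difference of 2.53 (p.adj = 0.0157). Ier5l was thus on the side of the 4 higher genes between ACSA2 and CD11b libraries and on the side of the 34 higher genes between CaMKII positive and ACSA2 libraries.

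Partners and regulators of the family were counted in the same way. Of the 8 PP2A subunits, 3 were higher and 1 lower in ACSA2 than in CD11b libraries, and their median log2 difference was 0.10, beside the 51.2% of all genes called and their median of 0.24. Ppp2r2b, a brain-enriched regulatory subunit, was higher by 7.84 and the scaffold subunits Ppp2r1a and Ppp2r1b differed by 1.10 and -1.56. Of the 12 genes of HSF1 and its chaperones, 1 was higher (Hspb1, 2.89) and 3 lower, among them Dnajb1 (-2.84) and Hspa1a (-2.22), which is 33.3% of that list, against 50% of the PP2A subunits. Of the 12 NF-kB feedback genes, of the pathway that targets Ier3, 11 were lower in ACSA2 libraries with a median of -3.40, and the 3 with the smallest p were Nfkb1 (-2.26), Nfkbiz (-4.99) and Tnfaip3 (-6.14), the deubiquitinase that limits NF-kB signalling. In CaMKII positive against ACSA2 libraries 8 of the 12 were higher and 0 lower, to be read against the same counts over all genes, and between double-positive and CD11b libraries none was called.

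In CD11b libraries, the contrast on which the family was selected, Ier5l was lower after a burn. Within batch 3, which held 5 burn and 5 sham mice, the sham libraries had 4.01, 4.59, 4.42, 3.30 and 3.79 CPM and the burn libraries 2.16, 0.164, 0.750, 0.703 and 0.979 CPM, with no overlap. In batch 1 the only sham library had 5.29 CPM and the burn libraries 2.57, 2.65 and 1.06 CPM. The only batch 2 library, of sham mouse 13, had 1.10 CPM, as low as the lower burn libraries. All 8 burn libraries lay below the sham median of 4.01 CPM and 5 of them below all sham libraries.

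These levels rest on few reads, from 3 counts in burn mouse 21 to 290 counts in sham mouse 8. The lowest, 3 counts, equals the limit that a count of 0 allows, which ranged from 0.0626 to 0.164 CPM over the burn CD11b libraries. That limit covers counting error only. The group means were 1.38 ± 0.943 CPM (SD, n = 8) after a burn and 3.78 ± 1.34 CPM (n = 7) after sham, and the fitted log2FC, burn minus sham, was -1.88 (SE 0.43). It was -2.04 in batch 3 alone and -1.41 without the batch term, and 0% of the 26079 genes tested were called in this contrast by edgeR (2036 had an unadjusted p under 0.05, and DESeq2 called 80 genes). The study, using DESeq2, reported Ier5l among the genes significantly lower in microglia after a burn. The left-out burn mouse 3 had 1.41 CPM.

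The marker sums of these libraries overlapped between burn and sham. The microglia markers summed to a median of 23314 CPM after a burn (17798 to 25244) and 23498 CPM after sham (18603 to 28721). The endothelial markers summed to 60.5 CPM (48.6 to 93.0) and 78.9 CPM (54.5 to 153), with Cldn5 and Slco1a4 at 0 in 1 library each, and the astrocyte markers to 224 CPM (197 to 343) and 260 CPM (227 to 310). Border macrophage markers summed to 383 CPM (198 to 489) after a burn and 296 CPM (79.5 to 394) after sham. The part of these cells in the Ier5l values was not tested.

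The other members of the family had smaller differences in CD11b libraries. Ier2 averaged 489 ± 78.1 CPM after a burn and 447 ± 86.0 CPM after sham (log2FC 0.17, SE 0.11, 0.089 to 0.22 when any 1 mouse was omitted). Ier3 averaged 226 ± 71.0 and 214 ± 62.7 CPM (log2FC -0.10, SE 0.11, -0.17 to -0.01 when any 1 mouse was omitted, -0.08 in batch 3 alone and 0.09 without the batch term). Ier5 averaged 842 ± 115 and 780 ± 93.3 CPM (log2FC 0.06, SE 0.09, 0.015 to 0.089 when any 1 mouse was omitted). Their burn and sham ranges overlapped, with 1 burn library above all sham libraries for each of the 3 genes. As these values belong to the contrast that picked the family, they carry no test.

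**Figure D3:**
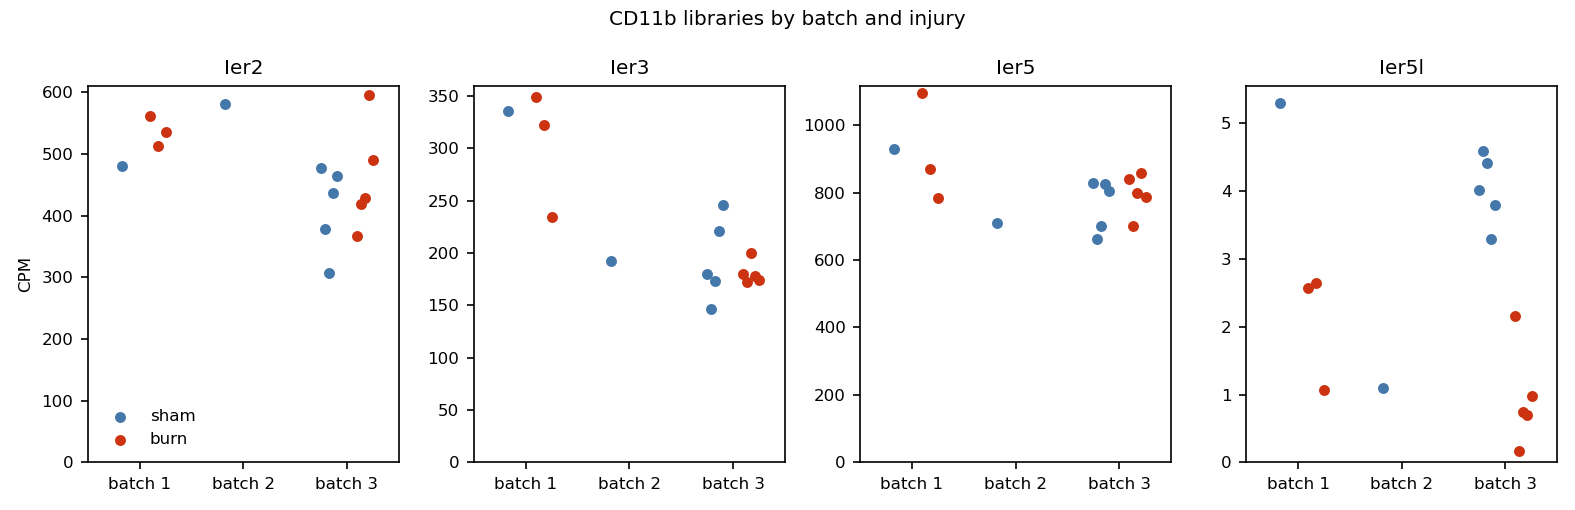
CPM of each member in the 15 CD11b libraries by batch (linear axis from 0), with sham in blue and burn in red. Ier5l separates burn from sham in batches 1 and 3 and is low in the only batch 2 library, a sham of 1.10 CPM, while Ier2, Ier3 and Ier5 overlap in batch 3.

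Outside CD11b libraries no member was called between burn and sham. In CaMKII positive libraries Ier5l ranged from 14.1 to 25.4 CPM after a burn (14.1, 14.2, 18.7 and 25.4 CPM) and from 13.0 to 41.9 CPM after sham, with a sham median of 17.6 CPM. The log2FC was -0.12 (95% interval -0.83 to 0.58, p.adj = 1.000). Ier2, Ier3 and Ier5 had log2FC of -0.08 (-0.59 to 0.44), 0.09 (-0.44 to 0.62) and 0.17 (-0.20 to 0.55), and all burn libraries lay within the sham range for the 4 members. In batch 3 alone the 4 values were -0.26 for Ier2, -0.02 for Ier3, 0.05 for Ier5 and -0.28 for Ier5l. In that comparison 0% of 28107 genes were called by edgeR (1096 at an unadjusted p under 0.05) and 3 genes by DESeq2.

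In double-positive libraries Ier5l ran from 0.359 to 4.44 CPM after a burn (median 2.73) and from 1.21 to 5.93 CPM after sham (median 2.81), again with overlap. Its log2FC of -0.50 had a 95% interval of -1.49 to 0.50 (p.adj = 0.968). When any 1 mouse was omitted it ranged from -0.74 (without mouse 20) to -0.19 (without mouse 11). Ier2, Ier3 and Ier5, which had from 151 to 1080 CPM in these libraries, were estimated more tightly at -0.03 (-0.22 to 0.15), 0.01 (-0.32 to 0.34) and 0.03 (-0.12 to 0.19). For Ier2, 5 of 9 burn libraries fell below all sham libraries, and 3 of those 5 were from batch 1, which had no sham library. In batch 3 alone the log2FC were -0.01 for Ier2, 0.15 for Ier3, 0.07 for Ier5 and -0.19 for Ier5l. Here 0% of 26707 genes were called by edgeR (1872 at an unadjusted p under 0.05) and 2 genes by DESeq2.

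In ACSA2 libraries Ier2 was the member with the largest estimate. It ran from 27.9 to 65.9 CPM after a burn (median 33.0) and from 10.6 to 44.3 CPM after sham (median 28.0), and 8 of 9 burn libraries lay above the sham median. The log2FC was 0.57 (SE 0.22) with an unadjusted p of 0.0167, the only member under 0.05 in the 3 tested populations, and a p.adj of 0.458 in edgeR's quasi-likelihood test. Ier3 had a log2FC of 0.38 (95% interval -0.17 to 0.93), Ier5 of 0.00 (-0.28 to 0.28) and Ier5l of 0.07 (-0.52 to 0.67). In batch 3 alone these were 0.39 for Ier2, 0.24 for Ier3, -0.12 for Ier5 and 0.05 for Ier5l. Ier5l itself ran from 2.39 to 9.10 CPM after a burn and from 2.49 to 9.37 CPM after sham.

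The endothelial markers in the same ACSA2 libraries summed to a median of 642 CPM after a burn (429 to 1277) and 515 CPM after sham (133 to 741), with all 5 genes detected in every library, and their part in the Ier2 value was not tested. In that comparison 0% of 27930 genes were called by edgeR (2984 at an unadjusted p under 0.05) and 27 genes by DESeq2. Whether the burn effect on Ier5l differed between populations was not tested. Batches 1 and 2 held too few libraries of each treatment for values of their own.

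**Figure D4:**
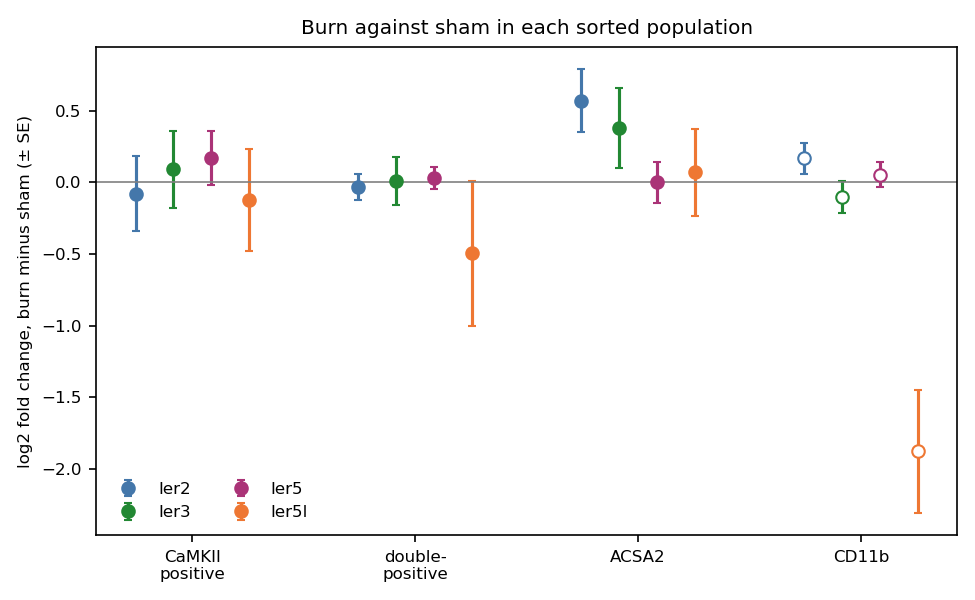
Log2 fold change of each member, burn minus sham, with its standard error in the 4 sorted populations, from fits with batch as a term. Open circles mark the CD11b libraries, which picked the family and carry no test, and there Ier5l lies at -1.88 while all other values are between -0.50 and 0.57.

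Since 0% of all genes were called between burn and sham by edgeR, a count of calls could not set the pathway lists apart. Of the immediate early genes, PP2A subunits, HSF1 and chaperone genes and NF-kB feedback genes, 0 were called by edgeR in any of CaMKII positive, double-positive and ACSA2 libraries. The median log2FC of the immediate early genes was 0.16 in CaMKII positive, 0.01 in double-positive and 0.14 in ACSA2 libraries, beside 0.02, 0.00 and 0.05 over all genes. The medians of the PP2A subunits were 0.01, -0.05 and -0.10, those of the HSF1 and chaperone genes -0.02, -0.11 and -0.03, and those of the NF-kB feedback genes 0.29, 0.00 and 0.10. In CD11b libraries, as description, the immediate early genes had a median of 0.10, the PP2A subunits of -0.04, the HSF1 and chaperone genes of -0.13 and the NF-kB feedback genes of 0.04.

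Levels were also compared between batches, since the 3 batches differ in their balance of burn and sham. The contrast set batch 3 against the mean of the others in each population with treatment in the fit, and no member was called in any of the 4. In CD11b libraries Ier2 ranged from 308 to 596 CPM in batch 3 (median 433) and from 481 to 581 CPM in the others (median 536), a log2 difference of -0.42 (SE 0.12, p.adj = 0.0825). Ier3 ranged from 147 to 246 CPM in batch 3 and from 192 to 349 CPM in the others, a log2 difference of -0.43 (SE 0.12, p.adj = 0.0748). There 0.399% of genes were called, and the unadjusted p was under 0.05 for these 2 members only. Without sham mouse 13, the only one of batch 2, the log2 difference was -0.26 for Ier2 and -0.80 for Ier3. In double-positive libraries Ier2 and Ier5 were the 2 under an unadjusted 0.05, higher in batch 3 by 0.19 (SE 0.09, p.adj = 0.217) and 0.17 (SE 0.07, p.adj = 0.187), where 1.12% of genes were called. In ACSA2 libraries, with 1.03% called, and CaMKII positive libraries, with 0% called by edgeR (1509 at an unadjusted p under 0.05) and 111 genes by DESeq2, no member was under it.

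Ier5l had the largest standard error of the 4 members in each population here. Its log2 difference, batch 3 minus the others, was 0.38 in CD11b (SE 0.50), 0.38 in double-positive (SE 0.45), 0.33 in CaMKII positive (SE 0.45) and 0.10 in ACSA2 libraries (SE 0.31). The value in CD11b libraries rests on sham mouse 13, the only one of batch 2: without that library it was -0.95. Of the lists, 3 immediate early genes were called between batches in ACSA2 libraries, Socs3 (1.76), a feedback inhibitor of cytokine signalling, the RNA-binding protein Zfp36 (1.15) and the nuclear receptor Nr4a2 (-1.10), and 1 PP2A subunit, Ppp2r2c (-2.31), while none was called in the other 3 populations.

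With batch and treatment removed, members were compared across the libraries of each population. For 6 pairs of members and each member with the mean of the 47 immediate early genes, 40 correlations of residual log2 CPM were computed over the 4 populations, and 11 had a p.adj of at most 0.05 (permutation of libraries within batches, 2-sided, Benjamini-Hochberg over the 40), all of them positive. By Spearman's rho 10 passed. Without mouse 18 the count fell to 3, and it was 6 without mouse 11 and 7 without mouse 17. Libraries share their depth and their mixture of cells, which these correlations carry with them, and no test compared the correlations between populations.

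In ACSA2 libraries (n = 17) 5 of the 6 pairs of members passed. Ier3 and Ier5l had the closest relation, with r = 0.84 (permutation p = 5e-05, p.adj = 0.002) and rho = 0.81 (p = 0.0003), and r = 0.78 without the 2 libraries farthest from the median of Ier3. Ier2 with Ier5 had r = 0.78 (rho 0.71, permutation p.adj = 0.0135), Ier5 with Ier5l 0.71 (rho 0.66, p.adj = 0.0232), Ier2 with Ier3 0.66 (rho 0.69, p.adj = 0.0232) and Ier3 with Ier5 0.66 (rho 0.65, p.adj = 0.0232). Only Ier2 with Ier5l missed the threshold, at r = 0.62 (rho 0.53, permutation p.adj = 0.0529). Ier3 and Ier5 also rose with the mean of the immediate early genes, at r = 0.67 (rho 0.66) and 0.65 (rho 0.60), with permutation p.adj of 0.0232 and 0.0457, the latter 0.0679 by rho. Of these ACSA2 relations only Ier3 with Ier5l and Ier2 with Ier5 still passed without mouse 18.

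In CaMKII positive libraries (n = 10) Ier2 varied with Ier5 (r = 0.90, rho 0.89, permutation p.adj = 0.0196) and with Ier3 (r = 0.87, rho 0.92, permutation p.adj = 0.0044), and both relations stayed at 0.82 without the 2 libraries farthest from the median of Ier2. Without mouse 18 only Ier2 with Ier5 still passed there, and no relation did in double-positive or CD11b libraries. In double-positive libraries (n = 16) no pair of members passed, and Ier5 followed the mean of the immediate early genes (r = 0.79, rho 0.77, permutation p.adj = 0.029, r = 0.71 without the 2 farthest libraries). In CD11b libraries (n = 15) only Ier3 with Ier5 passed (r = 0.72, permutation p.adj = 0.0275), but with rho = 0.60 the p.adj was 0.0928 and without the 2 libraries farthest from the median of Ier3 the r was 0.47, so this relation rests in part on them. Ier5l there had r of -0.17 with Ier2, 0.15 with Ier3, 0.39 with Ier5 and -0.12 with the mean of the immediate early genes, none of which passed.

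Endothelial markers moved with the members in the same libraries. In ACSA2 libraries the residual of their summed level correlated with Ier2 at r = 0.83 (rho 0.85, permutation p.adj = 0.00192), with Ier3 at 0.76 (rho 0.77, p.adj = 0.0444), with Ier5l at 0.68 (rho 0.68, p.adj = 0.0444) and with Ier5 at 0.66 (rho 0.65, p.adj = 0.0444), out of 48 correlations with astrocyte, microglia and endothelial markers of which 7 passed. By rho only Ier2 and Ier3 in ACSA2 libraries and Ier5 in double-positive libraries passed, with permutation p.adj of 0.0048, 0.0392 and 0.0392. This set was added after the data were seen. Without the 2 libraries farthest in the marker level the 4 values were 0.76, 0.78, 0.65 and 0.64. In CaMKII positive libraries Ier3 followed them too (r = 0.86, rho 0.66, permutation p.adj = 0.0444), falling to 0.46 without the 2 farthest libraries, and in CD11b libraries Ier2 went the other way (r = -0.78, rho -0.77, permutation p.adj = 0.0444, and -0.66 without the 2 farthest). The remaining 1 was Ier5 with the microglia markers in double-positive libraries (r = -0.76, rho -0.77, permutation p.adj = 0.0444, and -0.71 without the 2 farthest).

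With the endothelial level also removed, an alternative likewise added later, 1 of the 40 correlations passed in place of 11, that of Ier5 with the immediate early genes in double-positive libraries (r = 0.86, permutation p.adj = 0.0128). In ACSA2 libraries Ier2 with Ier3 then had r = 0.10, Ier3 with Ier5 0.34, Ier5 with Ier5l 0.47, Ier2 with Ier5 0.55 and Ier3 with Ier5l 0.68. With the mean of the immediate early genes, Ier3 and Ier5 had r = 0.54 and 0.51 in ACSA2 libraries. In CaMKII positive libraries Ier2 with Ier5 stayed at 0.88 and Ier2 with Ier3 at 0.77, with permutation p.adj of 0.182 and 0.245. In CD11b libraries Ier3 with Ier5 had r = 0.68 (permutation p.adj = 0.193).

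**Figure D5:**
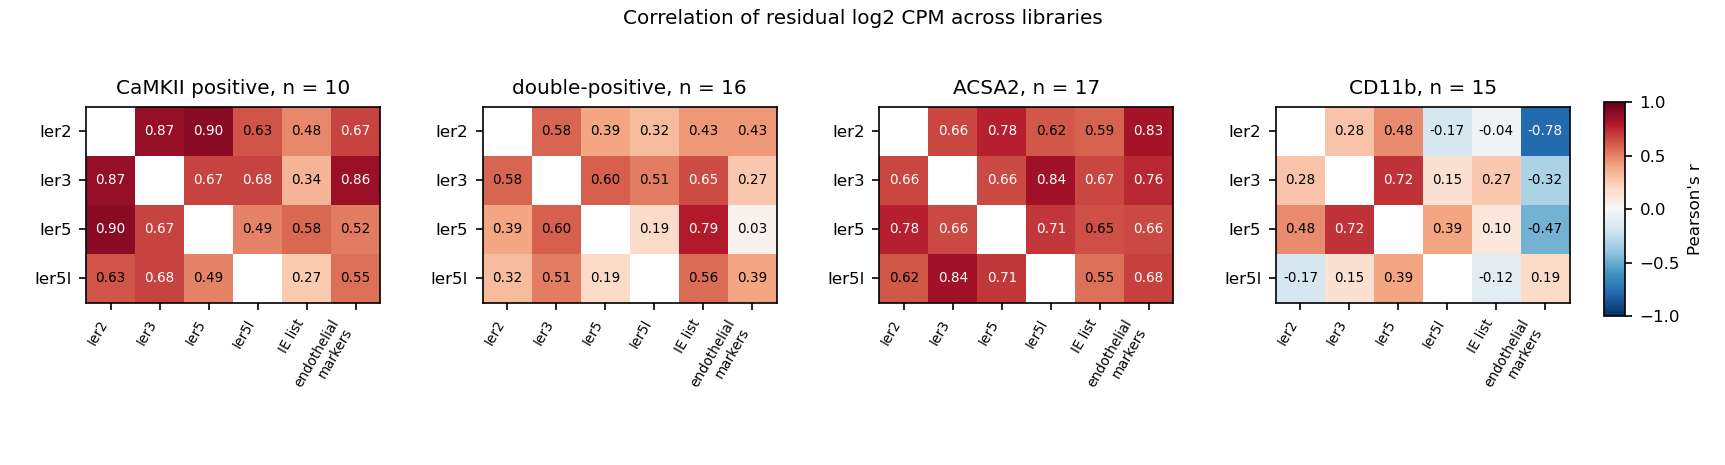
Pearson's r of residual log2 CPM (batch and treatment removed) between members, with the mean of 47 immediate early genes (IE list) and with the summed endothelial markers, in each sorted population. ACSA2 libraries are positive throughout, from 0.55 to 0.84, while in CD11b libraries Ier2 runs against the endothelial markers at -0.78.

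The genes whose residual pattern over all 58 libraries was most like each member were listed among 12586 genes with a mean of at least 1 CPM in every population, as a description in which libraries share depth and cell mixture. For Ier2 they were Isyna1 (r = 0.77), a synthase of inositol phosphate, Fli1 (0.76), a transcription factor of blood and endothelial cells, Ier5 (0.75), the organic anion transporter Slco2b1 (0.75) and the endothelial receptor Eng (0.74). For Ier5 they were Ier2 (0.75), the kinase Map3k8 (0.72), Isyna1 (0.71), the repressor Etv3 (0.70) and Crybg3 (0.69). For Ier3 they were Mcl1 (0.72), the interferon-induced factor Irf1 (0.70), Calcrl (0.68), a receptor of adrenomedullin, the iron exporter Slc40a1 (0.67) and the Notch ligand Jag2 (0.67). Ier2 and Ier5 were thus in each other's list. Within single populations the values differed: the r with Ier2 in CD11b libraries was -0.19 for Isyna1, -0.17 for Fli1, -0.01 for Slco2b1, 0.18 for Eng and 0.48 for Ier5, and in double-positive libraries it was 0.72, -0.14, -0.24, -0.0019 and 0.39, against 0.74 to 0.90 in CaMKII positive and 0.78 to 0.87 in ACSA2 libraries.

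The genes nearest to Ier5l were the small GTPase Arl4d (r = 0.61), the lactate transporter Slc16a1 (0.58), Ehd2 (0.56), a protein of caveolae, the kinase Plk2 (0.56) and Irf1 (0.55). Of all the genes compared, 18 had an r over 0.5 with Ier5l, against 194 for Ier2, 146 for Ier5 and 136 for Ier3. Within CD11b libraries alone the r with Ier5l was 0.46 for Arl4d, 0.44 for Slc16a1 and 0.69 for Ehd2, 0.13 for Plk2 and 0.24 for Irf1, and in each of the other populations all 5 were positive, from 0.23 to 0.79.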

How the data were processed

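Per the study's methods, stranded total RNA libraries depleted of ribosomal RNA were trimmed with fastp and aligned with STAR to a mouse genome that the methods call both mm10 and GRCm39, and reads were counted on Ensembl genes with GenomicAlignments in R, without a stated strand setting. The authors deposited raw counts per gene and library, whole numbers that were tested as deposited, and also variance-stabilised values on a log2-like scale that were not used here. No row lacked a gene ID and 0 columns were left unused.

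Burn was tested against sham in each population with edgeR 4.0.16 (TMM, genes with at least 10 counts in total, glmQLFit and glmQLFTest, batch and treatment in the design) in R 4.3.3, and populations were compared in a joint fit of 58 libraries with group and batch. P-values were adjusted by Benjamini-Hochberg over all genes tested, and calls were made at the threshold of 0.05 together with a log2FC of 1 or more in size. The SE was taken as the size of the log2FC divided by the root of F, and 95% intervals span 1.96 SE on either side. That multiple makes them too narrow with few libraries. For Ier5 between batches in CaMKII positive libraries the interval, 0.008 to 0.960, was wholly positive, though the unadjusted quasi-likelihood p was above 0.05. DESeq2 1.42.0 was an alternative. The batch of each mouse came from the study's sample table, read as text from page images. Correlations used log2 CPM with a prior count of 2 and 100000 permutations within batches (Python 3.11.15, numpy 2.4.6, pandas 2.3.3). Tests were checked on simulated data.

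Exon lengths came from GENCODE M21, and no exon of a member overlapped another gene there. GENCODE M21 and the RefSeq promoters are on GRCm38, so positions are given for the promoters alone, on that build, and were not joined to the counts. Libraries of 1 mouse share their animal: the correlation of their deviations from the group means had a median of -0.04 to 0.10 between populations, and a fit with the mouse as a block was an alternative. Each library is a separate mouse within its population. Over 481 pairs of libraries of 1 group and population 0 were identical, with a chi-square per degree of freedom of at least 14.1. Depth differed between libraries, and 3 counts were taken as the limit that a count of 0 allows. Bulk libraries cannot tell fewer cells of a type from less RNA per cell. The members, gene lists and tests were chosen with earlier results of these data known. Named genes are the 4 members, at most the 3 genes of each list with the smallest p among those called, and the 5 genes most like each member.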

Additional observations from a re-analysis of the deposited data

Results flagged for a closer look

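In CD11b libraries Ier5 in burn mouse 2, at 1094 CPM, stood apart from the other 7 burn libraries. In CaMKII positive libraries Ier5l in sham mouse 17, at 41.9 CPM, stood apart from the other 5 sham libraries, and that library also had the highest Ier2 and Ier3 of its group. These were 2 of 32 groups examined, and by chance about 1 in 20 groups shows such a gap. The libraries of burn mouse 3, left out of all comparisons, lay above every kept sham library in 5 of 16 comparisons of a member in a population: for Ier2 in ACSA2 cells (69.3 CPM, highest sham 44.3), for Ier3 in CaMKII positive (151 CPM, highest sham 149), double-positive (312 CPM, highest sham 289) and ACSA2 cells (40.5 CPM, highest sham 19.9), and for Ier5l in ACSA2 cells (11.9 CPM, highest sham 9.37). These 16 comparisons come from 1 mouse, and the share of all genes for which the same held was not counted.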

How the results depend on the processing

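No member was called between burn and sham in CaMKII positive, double-positive or ACSA2 libraries or between batches in any population, and all 4 were called in 5 of the 6 pairs of populations, under every setting tried for these comparisons (burn against sham in CD11b libraries had no test of members): DESeq2, other size factors, other filters on low counts, no minimum fold change, no batch term, batch 3 alone, all deposited libraries and each mouse left out. With mouse as a replicate block 4 members were called in those 5 pairs and 0 between double-positive and CD11b libraries, and 1529 genes were called there in place of 2262. In all of these settings the burn CD11b values of Ier5l that picked the family enter the pairs with CD11b libraries. The direction turned only in values that passed no test, and the cause was not tested. With all deposited libraries, burn minus sham in CaMKII positive libraries became 0.057 for Ier2 and 0.040 for Ier5l and the batch difference there -0.022 for Ier3 and -0.079 for Ier5l, and in double-positive libraries, where the left-out sham library had no reads of any member, Ier2 became 0.43. With batch 3 alone Ier3 became -0.025 in CaMKII positive and Ier5 -0.12 in ACSA2 libraries. Without the batch term Ier3 became -0.0069 and Ier5 -0.059 in double-positive libraries, and Ier5 in ACSA2 libraries became -0.0067 with DESeq2, -0.0067 with its size factors and -0.00079 with edgeR's own filter.

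Leaving out 1 mouse at a time, burn minus sham ranged in CaMKII positive libraries from -0.26 to 0.080 for Ier2, from -0.032 to 0.35 for Ier3 and from -0.30 to 0.22 for Ier5l, in double-positive libraries from -0.10 to 0.0072 for Ier2 and from -0.075 to 0.15 for Ier3, and in ACSA2 libraries from -0.075 to 0.062 for Ier5 and from -0.13 to 0.26 for Ier5l. The batch difference of Ier5l ranged from -0.063 to 0.74 in CaMKII positive, from -0.046 to 0.33 in ACSA2 and from -0.95 (without mouse 13) to 0.50 in CD11b libraries, and that of Ier3 from -0.045 to 0.24 in double-positive libraries. In CD11b libraries burn minus sham of Ier5l ranged from -2.27 (without mouse 20) to -1.66 (without mouse 21).

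Of 40 correlations, 11 passed, against 10 with TMM scaling, 10 with a prior count of 0.5, 16 with batch not removed and 1 with the endothelial markers removed. Leaving out 1 mouse gave from 3 (without mouse 18) to 13, with 6 without mouse 11 and 7 without mouse 17.

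Counts over all genes also moved by more than 1.5 times. Leaving out 1 mouse at a time, the batch contrast called from 0 to 61 genes in CaMKII positive (61 without mouse 2), from 97 (without mouse 10) to 356 in double-positive, from 60 (without mouse 13) to 532 (without mouse 11) in ACSA2 and from 54 (without mouse 18) to 217 (without mouse 19) in CD11b libraries. Between burn and sham (0 called in each) DESeq2 called 3 genes in CaMKII positive, 2 in double-positive, 27 in ACSA2 and 80 in CD11b libraries, no filter gave 14 in double-positive and 4 in ACSA2, and all deposited libraries gave 136 in double-positive. Between batches DESeq2 gave 111 in CaMKII positive, 611 in ACSA2 and 417 in CD11b, no filter gave 558, 571 and 180 and no minimum fold change 1589, 648 and 458 in double-positive, ACSA2 and CD11b, and all deposited libraries gave 8, 442 and 58, in place of 298, 288 and 104. Between populations no minimum fold change gave 9995 for CaMKII positive against ACSA2 in place of 5385, and batch 3 alone gave 1005 for double-positive against CD11b in place of 2262. Few reads limit Ier5l in CD11b and double-positive libraries, where the lowest libraries had 3 and 14 counts.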
